A study of Mus musculus with 60 samples.

Results

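Axons are steered by secreted and membrane-bound cues that are read by receptors on the growth cone, and many of the same molecules act later at the synapses of the adult hippocampus. The genes described here encode the ligands and receptors of the 4 classical guidance systems: ephrins and their Eph receptor tyrosine kinases, semaphorins with plexins and neuropilins, Slits with Robo receptors, and netrins with Dcc, neogenin and Unc5 receptors. The netrin-G proteins, which are anchored to the membrane and bind other partners than the netrin receptors do, were counted with them. Members were chosen by gene symbol alone, and 65 of the 16994 gene symbols in the analysed peak lists belonged to them. They comprised 8 ephrins, 12 Eph receptors, 18 semaphorins, 7 plexins, 2 neuropilins, 3 Slits, 4 Robo receptors, 3 netrins, 2 netrin-Gs and 6 netrin receptors. A further 6 genes of these names in the GENCODE M21 annotation (Epha1, Epha10, Plxna3, Plxnb3, Sema3g and Sema4g) had no row in the lists used here, and they entered no count.

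The marks were mapped by CUT&RUN, in which an antibody directs a nuclease to cut out the chromatin that carries a histone modification. H4K8ac is an acetylation found at active promoters and enhancers, and H3K27me3 is the methylation laid down by Polycomb complexes at repressed genes. Nuclei came from the hippocampus of male Emx1-NuTRAP mice, in which Cre expressed from the Emx1 gene, active mostly in excitatory neurons and also in neural progenitors, switches on a tag on the nuclear envelope and another on the ribosome. All mice carried both alleles. Exercised mice had voluntary access to a running wheel from postnatal day 21 to 41, and sedentary mice did not. The nuclei were isolated in 3 arms. In the SIT arm nuclei and RNA came from 1 homogenate of both hippocampi, and in the left and right separate arms nuclei were taken from that hippocampus alone. By the labels a SIT group held 4 samples and a left or right separate group 3, but the 12 lists analysed (2 marks, 2 conditions, 3 arms) pool the samples of a group. There is therefore 1 value per group, no replicate error and no test between conditions, and the 95% Wilson intervals given below cover counting over genes only.

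The lists hold the position and width of each peak, the nearest gene the authors assigned it to and no signal. The study states a minimum depth of sequencing, but the read depth behind each list is unknown. They ranged from 12168 to 38136 peaks for H4K8ac and from 9899 to 25693 for H3K27me3, and some exercised H4K8ac libraries had been left out by the study. Markers of the labelled cell type were checked first. Of 8 excitatory neuron markers, 3 to 5 had an H4K8ac promoter peak in each list, against 0 of 9 inhibitory neuron markers in every list. H3K27me3 promoter peaks were found at 6 to 8 of the 9 inhibitory markers and at 2 of 3 endothelial markers. H4K8ac promoter peaks were also present at 1 to 2 of 5 oligodendrocyte markers, 1 to 2 of 4 microglial markers and 0 to 3 of 5 astrocyte markers, and the part of such cells in the values below was not tested.

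Promoter sequences of members whose start site lay under a peak in at least 5 lists of a mark show the sequence setting of both marks. The first 4 had H3K27me3 and never H4K8ac over the start site, and the last 3 had H4K8ac and never H3K27me3. Bases upstream of the start site that overlap no annotated exon are shown 5′ to 3′ on the coding strand (RefSeq, GRCm38.p6), with the CG dinucleotides in capitals.
Unc5b, minus strand, chr10:60831582-60831781: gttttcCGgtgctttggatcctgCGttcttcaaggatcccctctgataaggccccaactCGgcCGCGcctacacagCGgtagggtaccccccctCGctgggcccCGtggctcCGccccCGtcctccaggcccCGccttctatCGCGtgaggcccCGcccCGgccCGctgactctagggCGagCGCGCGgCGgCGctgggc
Ntn4, plus strand, chr10:93640849-93641048: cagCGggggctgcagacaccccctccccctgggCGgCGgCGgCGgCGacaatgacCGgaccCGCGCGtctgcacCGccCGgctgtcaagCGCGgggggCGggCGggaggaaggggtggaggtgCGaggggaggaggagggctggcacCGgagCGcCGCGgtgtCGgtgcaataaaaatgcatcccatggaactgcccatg
Ephb4, plus strand, chr5:137349909-137350108: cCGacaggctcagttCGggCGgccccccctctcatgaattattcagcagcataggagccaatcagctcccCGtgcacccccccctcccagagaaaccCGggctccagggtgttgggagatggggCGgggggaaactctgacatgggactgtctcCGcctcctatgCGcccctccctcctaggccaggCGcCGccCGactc
Epha2, plus strand, chr4:141301021-141301220: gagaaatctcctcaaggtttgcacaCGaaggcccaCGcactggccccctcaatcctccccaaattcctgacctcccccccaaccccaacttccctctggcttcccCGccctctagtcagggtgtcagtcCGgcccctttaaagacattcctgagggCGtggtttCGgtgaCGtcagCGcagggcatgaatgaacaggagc
Sema4b, plus strand, chr7:80186670-80186840: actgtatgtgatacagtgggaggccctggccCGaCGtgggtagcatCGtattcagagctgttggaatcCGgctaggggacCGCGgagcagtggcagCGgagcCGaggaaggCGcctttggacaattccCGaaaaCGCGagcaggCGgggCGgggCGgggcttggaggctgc
Ephb6, plus strand, chr6:41605311-41605481: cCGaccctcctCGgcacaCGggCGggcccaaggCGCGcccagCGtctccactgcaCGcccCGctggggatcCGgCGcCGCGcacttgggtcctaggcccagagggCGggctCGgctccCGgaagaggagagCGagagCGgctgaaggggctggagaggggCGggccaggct
Sema4a, minus strand, chr3:88459102-88459301: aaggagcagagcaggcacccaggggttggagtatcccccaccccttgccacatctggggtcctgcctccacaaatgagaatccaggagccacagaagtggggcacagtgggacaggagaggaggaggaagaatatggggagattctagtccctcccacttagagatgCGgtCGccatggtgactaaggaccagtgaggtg
Unc5b and Ntn4 each held 22 CG in 200 bases, whereas Ephb4 held 11 and Epha2 8. Sema4b held 15 and Ephb6 19 in 171 bases, and the Sema4a stretch held 2 in 200. CG-rich and CG-poor promoters were thus present under either mark.

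A RefSeq promoter window, from 250 bases before to 50 after the start site, was given for 55 of the 65 members (71 windows). The windows of members held a median of 20.0 CG, against 15.0 in the 15788 windows of all genes. In the 28 windows of members with H4K8ac over the start in at least 1 list the median was 19.5 CG, against 18 for all genes in that state. The 7 windows with H3K27me3 ranged from 8 to 38 CG with a median of 27, against 10.0 for all genes in that state. The 36 windows of members with neither mark had a median of 22.5, against 11. No window of a member had both marks over its start site. Counts of CG therefore overlapped widely between the states, and only 7 member windows stand behind the value for H3K27me3.

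**Figure D1:**
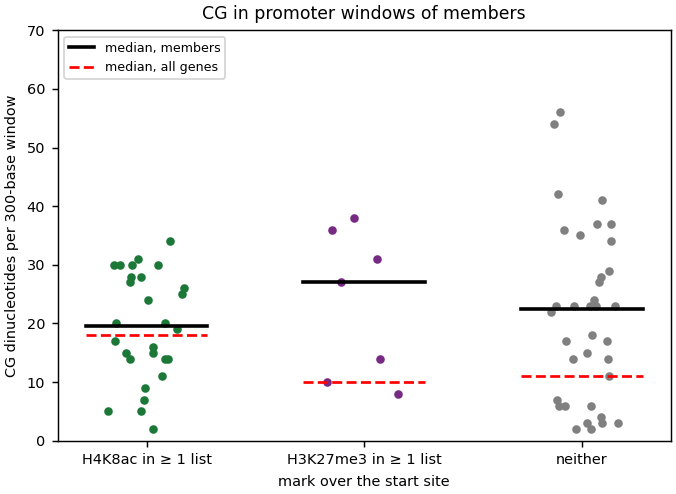
CG dinucleotides per 300-base promoter window (vertical axis) for the 71 windows of members, by the mark over the start site. Each point is 1 window, black lines are medians of members (19.5, 27 and 22.5) and dashed red lines are medians of all genes in the same state (18, 10.0 and 11). The points of the 3 states overlap.

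In each H4K8ac list the share of members was above that of all genes. In the SIT arm 50 of 65 members were listed, that is, had at least 1 assigned H4K8ac peak, in exercised mice and 50 in sedentary mice (76.9% in each, 65.4 to 85.5%), where 63.2% and 51.0% of all genes were listed. The left separate lists held 39 members in exercised and 52 in sedentary mice, where 30% and 60.1% of all genes were listed. In the right separate arm 39 and 47 members were listed, beside 34.1% and 49.0% of all genes. In total 59 members had H4K8ac in at least 1 list (79.9% of all genes did), and 31 members, 47.7%, were in all 6 lists (36.0 to 59.6%), against 19.3% of all genes. With promoter peaks alone the number in all 6 lists was 9 (13.8%), against 6.42% of all genes. Without the exercised left and right lists, 40 members (61.5%) were in all of the other 4 H4K8ac lists, against 34.2% of all genes.

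Guidance genes are long, and long genes can hold more peaks. The median length of a member was 108 kb, against 21.9 kb for all genes with a GENCODE entry. Among genes of at least 100 kb, 25 of 34 members (73.5%) were in all 6 H4K8ac lists, against 44.0% of all genes of that length. Among shorter genes the shares were 6 of 31 members (19.4%) and 15.1%. The difference from all genes was therefore larger among the long members.

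**Figure D2:**
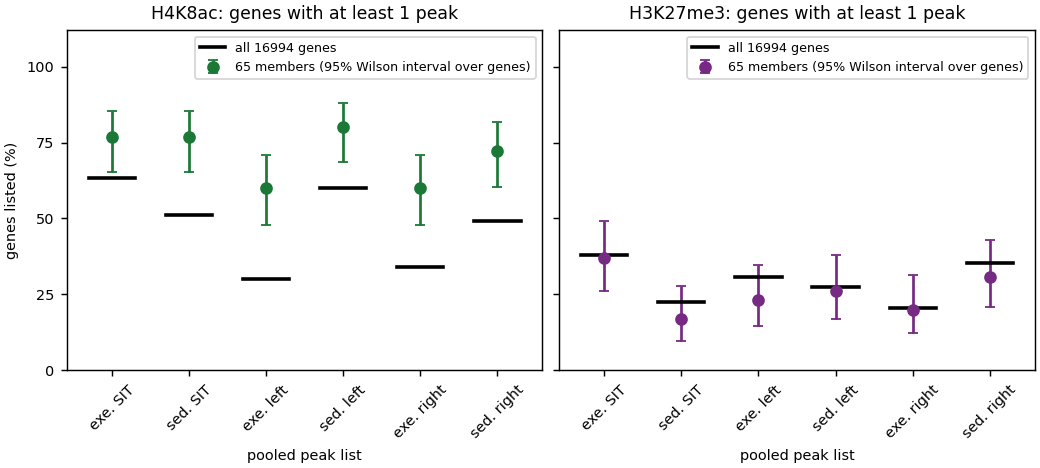
Share of genes with at least 1 peak (vertical axis, %) in each pooled list (horizontal axis, exercised and sedentary lists of each arm). Points are the 65 members with 95% Wilson intervals over genes, and black bars are all 16994 genes. For H4K8ac the points lie at 60.0 to 80.0%, above the bar in each of the 6 lists, and for H3K27me3 at 16.9 to 36.9%, with the bar inside the interval in each list.

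For H3K27me3 the share of all genes lay within the interval of the members in each of the 6 lists. In the SIT arm 24 members (36.9%, 26.2 to 49.1%) were listed in exercised and 11 (16.9%, 9.72 to 27.8%) in sedentary mice, beside 38.1% and 22.5% of all genes. In the left separate arm 15 (23.1%, 14.5 to 34.6%) and 17 (26.2%, 17.0 to 38.0%) were listed, beside 30.6% and 27.5%. The right separate lists held 13 (20.0%, 12.1 to 31.3%) and 20 members (30.8%, 20.9 to 42.8%), beside 20.6% and 35.4%. At least 1 list held 27 members (41.5%, with 43.5% of all genes), and 11 members (16.9%, 9.72 to 27.8%) were in all 6, with 16.5% of all genes. Among genes of at least 100 kb the shares in all 6 lists were 20.6% for members and 20.7% for all genes.

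The 11 members with H3K27me3 in every list were the ephrin Efna5, the Eph receptors Epha2 and Ephb4, the semaphorins Sema3f, Sema5b and Sema6d, the Slit receptor Robo1, the netrins Ntn1 and Ntn4, and the netrin receptors Unc5b and Unc5d. Of these, Epha2, Ephb4, Sema3f, Ntn1 and Ntn4 had no H4K8ac peak in any list, a pattern held by 7.69% of members and 7.85% of all genes. The only other member with no H4K8ac peak was Epha8. The reverse pattern, H4K8ac in every list and H3K27me3 in none, was held by 17 members (26.2%) and by 13.7% of all genes. They included the netrin receptors Dcc, Unc5a and Unc5c, the Eph receptors Epha6, Epha7 and Ephb2, the Slit ligand Slit3, the netrin Ntn3, the netrin-G Ntng1 and the semaphorin co-receptor Nrp1. Efna5, Robo1, Sema6d and Unc5d were in all 6 lists of both marks, 6.15% of members and 1.82% of all genes.

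**Figure D3:**
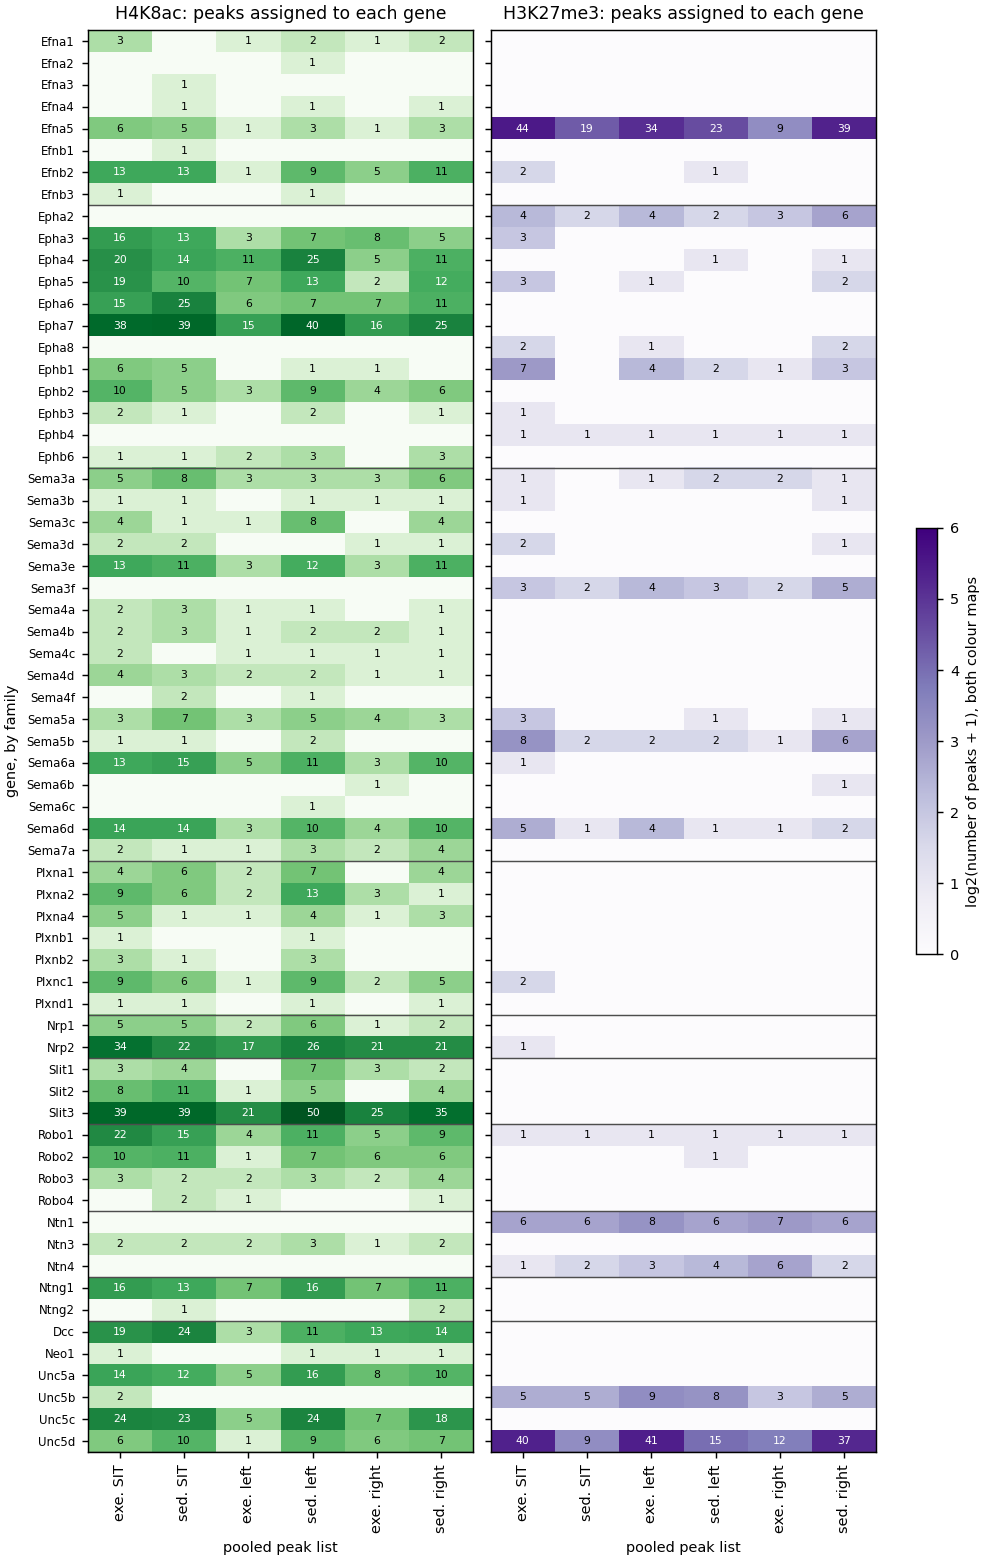
Number of peaks assigned to each of the 65 members (rows, in blocks by family) in each of the 6 pooled lists of H4K8ac (left) and H3K27me3 (right). Colour follows log2(number of peaks + 1) and the printed number is the count, with blank cells at 0. Slit3, Epha7 and Nrp2 hold the most H4K8ac peaks, Efna5 and Unc5d the most H3K27me3 peaks, and Epha2, Epha8, Ephb4, Sema3f, Ntn1 and Ntn4 are blank for H4K8ac.

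Ephrins are membrane-bound ligands of the Eph receptors. All 8 had H4K8ac in at least 1 list, but only Efna5 and Efnb2 had it in all 6, and these were the only ephrins with any H3K27me3. Efna5, a GPI-anchored ligand that guides topographic projections, held 44 H3K27me3 peaks in exercised and 19 in sedentary SIT mice, 34 and 23 in the left arm, and 9 and 39 in the right arm. Peaks covered 42.8% and 25.3% of the gene with its 3000 bp upstream in the SIT arm, 25.7% and 21.1% in the left arm, and 5.65% and 33.2% in the right arm. Exercised values were thus higher in the SIT and left arms and lower in the right arm. Of the 168 peaks, 85 were in introns, 75 were intergenic and 6 at a promoter. The transmembrane ligand Efnb2, which the study names, had 52 H4K8ac peaks, 13 and 13 in the SIT arm, 1 and 9 in the left arm, and 5 and 11 in the right arm (exercised first). Only 11 of the 52 overlapped the Efnb2 gene or its upstream 3000 bp. Its H3K27me3 peaks were 2 in exercised SIT mice, at chr8:8333265-8335158 and chr8:8572392-8578516, and 1 in the sedentary left list, at chr8:8256921-8259312. They lay 304, 60.8 and 380 kb downstream of the assigned start site, at positions that did not overlap one another, and none was on the gene.

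Efna4, another GPI-anchored ephrin, was the only member listed for H4K8ac in sedentary mice alone in all 3 arms, that is, 1.54% of members, where 0.712% of all genes were. No member was listed in exercised mice alone in all 3. It had 1 promoter peak of 1.24 kb in sedentary SIT mice, 1 of 1.47 kb in sedentary left mice and 1 of 2.36 kb in sedentary right mice, and 0 in the exercised lists. The 3 peaks overlapped at chr3:89336251-89337146. With 1 peak a list and no signal, how close the exercised mice came to the threshold of peak calling is unknown.

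Of the 12 Eph receptors, 6 had H4K8ac in every list (Epha3 to Epha7 and Ephb2). Epha7, which mediates repulsion of axons, held 38 and 39 H4K8ac peaks in the SIT arm, 15 and 40 in the left arm, and 16 and 25 in the right arm. Most lay upstream of the assigned start site, and of the 173 peaks 106 were intergenic and 65 overlapped the gene. Epha4, a receptor of dendritic spines and axons, held 20 and 14, 11 and 25, and 5 and 11 peaks in the same order, of which 23 of 86 overlapped the gene. Ephb2 held 10 and 5, 3 and 9, and 4 and 6, mostly on the gene (35 of 37). Epha2 and Ephb4, better known from epithelium and from vessels, had the start site inside an H3K27me3 peak in all 6 lists. A single peak covered the Ephb4 start in each list, 6794 and 9166 bp wide in the SIT arm, 8501 and 5929 bp in the left arm, and 6056 and 7986 bp in the right arm. Peaks over Epha2 covered 56.8% and 38.6% of the gene with its upstream bases, then 36.8% and 26.6%, then 25.9% and 46.5%.

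Semaphorins are secreted or membrane-bound ligands of plexins, some of them through neuropilins. Of 18, 17 had H4K8ac in at least 1 list, 8 in all 6, and 9 had H3K27me3 in at least 1. Sema3e, a secreted ligand that acts through plexin D1, had the largest covered length of H4K8ac among them, 118 kb summed over the 6 lists, with 13 and 11, 3 and 12, and 3 and 11 peaks. Sema4b was the only semaphorin with a start site inside an H4K8ac peak in all 6 lists, with 1 to 3 peaks a list. Sema3f, the secreted ligand of neuropilin 2, had H3K27me3 alone. It covered 49.0% and 46.5% of the gene in the SIT arm, 29.8% and 25.3% in the left arm, and 5.44% and 65.9% in the right arm, and the start site was inside a peak in 5 lists. Its exercised value was thus near the sedentary value in the SIT and left arms and far below it in the right arm. Sema5b had its promoter peak in all 6 lists, and the 1870 bp at chr16:35538315-35540184 were covered in each.

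Plexins and neuropilins receive semaphorins. All 7 plexins and both neuropilins had H4K8ac in at least 1 list, and 3 plexins (Plxna2, Plxna4 and Plxnc1) and both neuropilins in all 6. Nrp2, the co-receptor of Sema3f in hippocampal axons, held 34 and 22 H4K8ac peaks in the SIT arm, 17 and 26 in the left arm, and 21 and 21 in the right arm. They covered 52.2% and 31.3%, 30.8% and 43.9%, and 19.1% and 45.2% of the gene with its upstream bases. The condition with more coverage was exercised in the SIT arm and sedentary in both separate arms. H3K27me3 was listed for Nrp2 and Plxnc1 in exercised SIT mice alone, with 1 peak and 2 peaks outside the genes, and for no other plexin or neuropilin.

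Slits are large secreted repellents bound by Robo receptors. All 3 Slits had H4K8ac in at least 1 list and none had H3K27me3 in any. Slit3 held more H4K8ac peaks than any other member, 209 in all, with 39 and 39 in the SIT arm, 21 and 50 in the left arm, and 25 and 35 in the right arm. Of these, 187 were in introns, 9 were at a promoter, and 197 overlapped the gene. A further 67 peaks over Slit3 carried the symbol Mir218-2, a microRNA encoded within the gene, or that of the neighbour Pank3. Among the Robo receptors, Robo1, Robo2 and Robo3 had H4K8ac in all 6 lists. Robo1 held 22 and 15, 4 and 11, and 5 and 9 H4K8ac peaks, of which 54 of 66 overlapped the gene. Its H3K27me3 listing rested on 1 recurring peak per list, 1.61 to 4.25 kb wide, in which chr16:73095822-73097430 was covered in all 6. That stretch lies beyond the end of Robo1 at chr16:73046095, so none of the 6 peaks was on the gene, and they were annotated to an exon or intron of other transcripts.

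Netrins split by mark. Ntn3 had H4K8ac alone, with its start site inside a peak in all 6 lists and 2 and 2, 2 and 3, and 1 and 2 promoter peaks. Ntn1, the founding attractant of commissural axons, had H3K27me3 alone, with 6 and 6, 8 and 6, and 7 and 6 peaks, and its start was inside a peak in all 6. Its coverage was 26.5% and 21.5% in the SIT arm, 19.6% and 16.3% in the left arm, and 9.71% and 29.9% in the right arm. Ntn4, a netrin of basement membranes, had H3K27me3 over 97.3% and 77.7% of the gene in the SIT arm, 82.5% and 66.7% in the left arm, and 58.0% and 93.9% in the right arm. The number of peaks assigned to it said little of this. Exercised SIT mice had only 1 assigned peak of 15.5 kb, since 46 of the 53 peaks over Ntn4 in the 6 lists were assigned to the gene models Gm15915 and Gm8580. Among the netrin-Gs, Ntng1 had H4K8ac in all 6 lists (16 and 13, 7 and 16, and 7 and 11 peaks, all 70 on the gene), and Ntng2 had 3 peaks, in sedentary lists alone.

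Netrin receptors differed in kind. Dcc, which mediates attraction, and the Unc5 receptors Unc5a and Unc5c, which mediate repulsion, had H4K8ac in all 6 lists and no H3K27me3. Dcc held 19 and 24, 3 and 11, and 13 and 14 H4K8ac peaks, and Unc5c 24 and 23, 5 and 24, and 7 and 18. Unc5a held 14 and 12, 5 and 16, and 8 and 10, of which 50 of 65 lay outside the gene. Unc5b, with a CG-rich promoter shown above, had its start under H3K27me3 in all 6 lists. It had 5 and 5, 9 and 8, and 3 and 5 assigned peaks. All 30 peaks over the gene and its upstream bases, 3 of them assigned to Slc29a3, covered 59.5% and 44.4%, 57.4% and 40.0%, and 21.3% and 60.3%. Unc5d held H4K8ac and H3K27me3 in every list, with 154 H3K27me3 peaks (40 and 9, 41 and 15, and 12 and 37) and 39 H4K8ac peaks (6 and 10, 1 and 9, and 6 and 7). Neogenin (Neo1) had 1 H4K8ac peak in each of 4 lists.

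The start site of a member lay inside an H4K8ac peak in at least 1 list for 34 members (52.3%, where 43.6% of all genes did), and in all 6 lists for Sema4b and Ntn3 (3.08%, where 2.88% did). For H3K27me3 it did so in at least 1 list for 11 members (16.9%, where 19.2% of all genes did), and in all 6 for Epha2, Ephb4, Ntn1, Ntn4 and Unc5b (7.69%, where 7.04% did). Of the 1949 H4K8ac peaks of members 55.9% were in introns, of the member or of another gene, against 37.4% of all H4K8ac peaks, and 12.5% at promoters, against 23.5%. Among genes of at least 100 kb the intron shares were 62.2% for members and 58.8% for all genes, and among shorter genes 17.3% and 21.9%. The promoter shares of H4K8ac were 8.46% for members and 14.7% for all genes of at least 100 kb, and 37.3% and 29.9% for shorter ones. Of the 561 H3K27me3 peaks, 33.3% were in introns (20.5% of all), 43.9% were intergenic (45.3%) and 16.4% at promoters (20.3%). Among genes of at least 100 kb 37.6% were in introns (41.2% of all). Efna5 and Unc5d held 168 and 154 of the 561 peaks, so the H3K27me3 shares rest largely on these genes. The H3K27me3 promoter shares were 9.83% and 14.3% for the long genes, and 49.5% and 22.9% for shorter ones, so the lower promoter share of members held for long genes alone under both marks. Assignment to the nearest gene reached far, since 70.6% of the H4K8ac peaks but only 50.4% of the H3K27me3 peaks overlapped the member's own gene or its upstream 3000 bp. Of the 27 members with H3K27me3, 12 had no such peak on the gene, Efnb2, Epha4, Epha5, Robo1 and Sema6d among them. Neither these 2 shares nor this count was taken over all genes, so whether members differ from all genes here is unknown.

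Stretches covered in all 6 lists of a mark were extracted as the most stable parts of these loci. There were 50 for H4K8ac, assigned to 16 members (14 to Nrp2, 8 to Slit3, 6 to Ntng1 and 5 to Unc5a, all upstream of it). There were 41 for H3K27me3, assigned to 10 members (11 to Unc5d, 9 to Ntn4 and 7 to Efna5). The centre lay within the member's gene for 34 of the 50 and for 23 of the 41. Over all 16994 genes, 2002 had an H4K8ac stretch and 2617 an H3K27me3 stretch. The central 200 bases of 4 of them are shown on the plus strand (RefSeq, GRCm38.p6). The first 2 are H4K8ac stretches, in an intron of Ephb2 and 172 kb downstream of the Efnb2 start, where capitals mark CAGATG on either strand (an E-box of the kind bound by neurogenic basic helix-loop-helix factors). The last 2 are H3K27me3 stretches, in an intron of Unc5d and beyond the end of Robo1, where capitals mark CG.
Ephb2, chr4:136743620-136743819: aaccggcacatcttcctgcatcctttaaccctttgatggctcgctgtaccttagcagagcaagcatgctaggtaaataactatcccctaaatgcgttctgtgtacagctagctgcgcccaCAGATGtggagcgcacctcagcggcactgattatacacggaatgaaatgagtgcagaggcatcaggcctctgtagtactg
Efnb2, chr8:8489174-8489373: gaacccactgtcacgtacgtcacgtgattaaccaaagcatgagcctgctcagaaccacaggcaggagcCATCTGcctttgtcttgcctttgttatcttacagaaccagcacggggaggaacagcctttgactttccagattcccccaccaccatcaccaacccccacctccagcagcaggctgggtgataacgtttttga
Unc5d, chr8:28774646-28774845: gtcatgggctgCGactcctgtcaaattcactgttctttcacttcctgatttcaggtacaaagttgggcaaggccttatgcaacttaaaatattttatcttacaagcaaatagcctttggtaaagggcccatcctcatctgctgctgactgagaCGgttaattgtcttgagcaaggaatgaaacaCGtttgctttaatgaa
Robo1, chr16:73096527-73096726: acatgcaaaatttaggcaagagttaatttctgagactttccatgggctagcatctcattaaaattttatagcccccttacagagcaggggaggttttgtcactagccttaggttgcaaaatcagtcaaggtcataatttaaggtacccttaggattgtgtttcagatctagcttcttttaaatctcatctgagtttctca
Letters were counted in a window of 300 bases about the centre of each stretch. Stretches shorter than that, down to 15 bp for Nrp2, were counted with the bases around them. CAGATG was present on either strand in 10 of the 50 H4K8ac windows (20.0%), against 23.0% of the 3962 such windows of all genes. The letters TGANTCA, a site of the AP-1 type, were present in 7 windows (14%), against 9.82%. Of the 41 H3K27me3 windows, 7 held CAGATG (17.1%, against 20.4% of 8039) and 3 held TGANTCA (7.32%, against 8.38%). The median number of CG was 4 in the H4K8ac windows and 3 in the H3K27me3 windows, the same as over all genes. The stretch beyond Robo1 holds no CG in the bases shown.

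**Figure D4:**
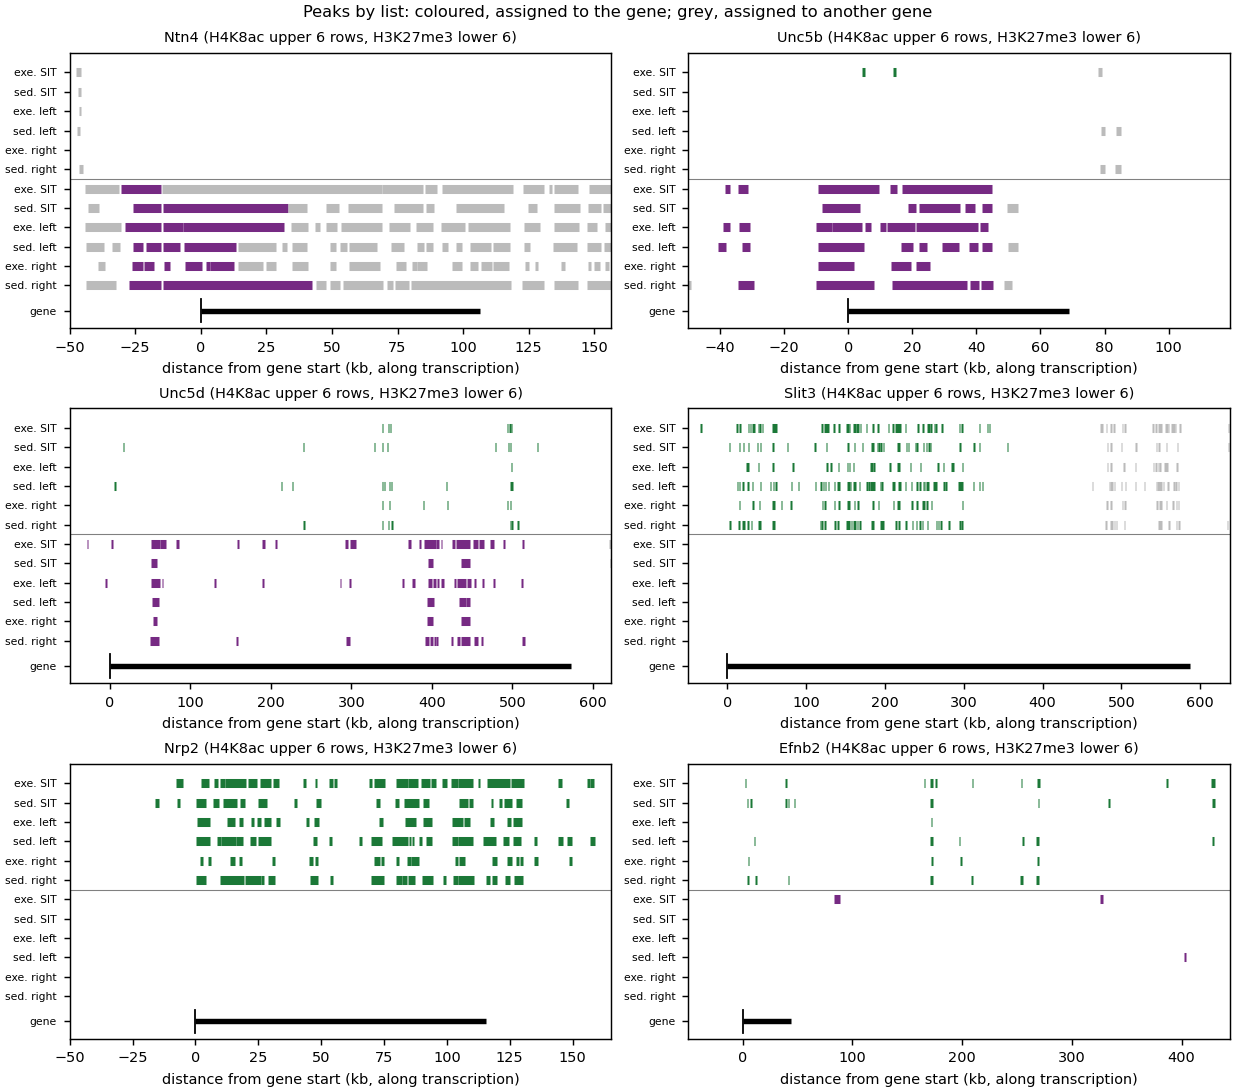
Peaks along 6 members, by distance from the gene start (horizontal axis, kb along transcription), with 1 row per pooled list, H4K8ac above (green) and H3K27me3 below (purple). Coloured peaks were assigned to the gene named, grey peaks to another gene, and the black bar is the gene. H3K27me3 covers most of Ntn4 in all 6 lists while much of it is grey, H4K8ac lies along Nrp2, the H4K8ac peaks assigned to Slit3 are in the first part of the gene while those in its last part are grey, both marks occupy separate parts of Unc5d, and the H3K27me3 peaks of Efnb2 are far from the gene.

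The comparison of exercised with sedentary mice asked whether early-life running changes which genes carry the marks. For H4K8ac, 6 members were gained (listed in exercised mice alone) and 6 lost (sedentary alone) in the SIT arm, where 19.3% of all genes were gained and 7.14% lost. With promoter peaks alone, 16 were gained and 5 lost in this arm, beside 20.3% and 5.84%. In the left separate arm 1 member was gained and 14 were lost, where 2.23% and 32.4% of all genes were. The right hippocampus alone gave 2 gained and 10 lost members, beside 4.93% and 19.8%. Exercised H4K8ac libraries, 3 of the separate arms and 1 of the SIT arm, had failed the study's limit on false peaks. The study does not say which of the 3 were left or right, nor list by list which libraries were pooled. The part of the libraries left out in these differences was not tested. The mean difference in listed members, exercised minus sedentary, was −7.00 ± 6.56 (SD over 3 arms). Members gained in the SIT arm were Efna1, Efnb3, Neo1, Plxnb1, Sema4c and Unc5b, and of these Efnb3, Neo1 and Plxnb1 were lost in the left arm. The members lost in 2 arms and not gained in the other were Ephb3, Sema4f, Plxnd1 and Ntng2. The share of all genes with this pattern was not taken.

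The counts were taken again with equal numbers of peaks, a setting that changes both the length of a list and the widths it holds. After the longer of 2 compared lists was cut to as many peaks as the shorter, keeping the widest, 4 members were gained and 7 lost for H4K8ac in the SIT arm, where 15% of all genes were gained and 9.79% lost. In the left arm 8 were gained and 6 lost, beside 9.46% and 9.49%, and in the right arm 7 and 7, beside 11.2% and 9.64%. Single peaks made many of the calls. For H4K8ac, 10 of the 14 members lost in the left arm and 5 of the 10 lost in the right arm had 1 peak. In the SIT arm 3 of the 6 gained and 4 of the 6 lost did. For H3K27me3, 5 of the 13 members gained in the SIT arm did. The share of single-peak calls over all genes was not taken. Only 1 gained or lost member, Robo4 in the SIT arm, had a peak that overlapped a peak of the opposite condition in the same arm, 1 of the 65 gained or lost calls of members over both marks and all arms (1.54%), against 3.02% of such calls of all genes.

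**Figure D5:**
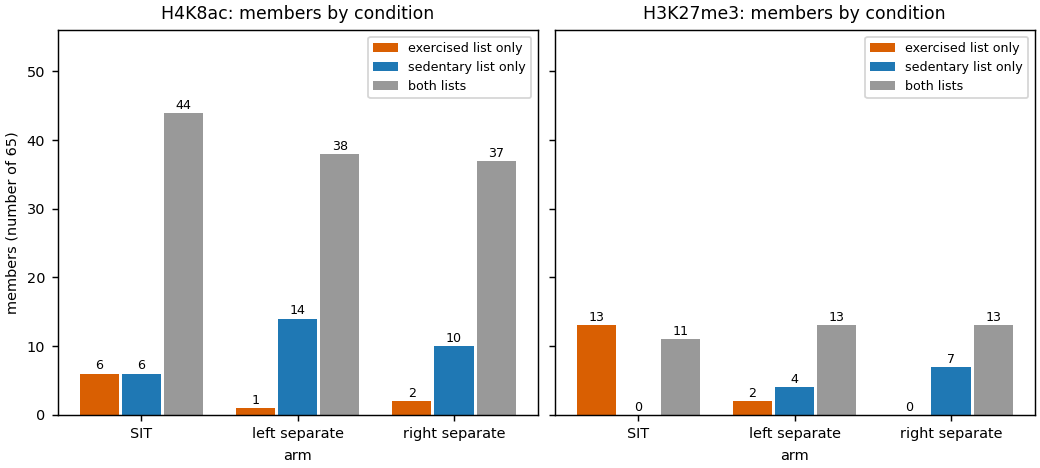
Number of members (vertical axis, of 65) listed in exercised mice alone, in sedentary mice alone, or in both, for each arm (horizontal axis) and mark. Each bar is a count from 1 pair of pooled lists. For H4K8ac losses outnumber gains in both separate arms (14 against 1 and 10 against 2), and for H3K27me3 gains are 13 against 0 in the SIT arm and 0 against 7 in the right separate arm.

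For H3K27me3, 13 members were gained and 0 lost in the SIT arm, where 15.9% of all genes were gained and 0.394% lost. In the left separate arm 2 were gained and 4 lost, beside 6.24% and 3.08%. The right hippocampus alone gave 0 gained and 7 lost, beside 1.14% and 15.9%. The mean difference was 1.33 ± 10.4 members, smaller than the spread between arms. Over all genes the listed share was higher in exercised mice in the SIT (38.1% against 22.5%) and left arms (30.6% against 27.5%). It was lower in the right arm (20.6% against 35.4%). With equal numbers of peaks by width, 2 were gained and 2 lost in the SIT arm, beside 3.85% and 3.18% of all genes, 1 and 4 in the left arm, beside 4.35% and 4.64%, and 2 and 1 in the right arm, beside 3.46% and 5.38%. No member was gained or lost in all 3 arms. Epha4 was lost in both separate arms through 1 peak each, at chr1:77255467-77257859 in the left and chr1:77256576-77258139 in the right list, about 120 kb downstream of its assigned start.

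The same H3K27me3 position could be gained in one arm and lost in another. At the Sema5a promoter, peaks at chr15:32245842-32249105 in exercised SIT, chr15:32246387-32248817 in sedentary left and chr15:32245339-32251354 in sedentary right mice overlapped one another, and this semaphorin was gained in the first arm and lost in the others. Sema3b, a secreted semaphorin, had a peak over its start at chr9:107603849-107607501 in exercised SIT mice and at chr9:107604219-107606185 in sedentary right mice, so it was gained in the SIT arm and lost in the right. Epha5 and Epha8 were gained in the SIT and left arms and lost in the right. In each of these cases the H3K27me3 peaks were in the longer list of the arm, except in the left arm for Sema5a. The other way round, all 4 members lost in the left arm (Efnb2, Epha4, Robo2 and Sema5a) had their peaks in its shorter list. That list held 14491 peaks, against 18262 in the exercised one. The part of list length was not tested.

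Both marks were assigned to the same member in the same list for 18 members in exercised SIT mice (where 16.8% of all genes had both), 6 in exercised left (5.47%), 6 in exercised right (4.49%), 5 in sedentary SIT (7.71%), 11 in sedentary left (10.9%) and 10 in sedentary right mice (11.8%). Efna5, Robo1, Sema6d and Unc5d were among them in every list. Of the 1949 H4K8ac peaks of members 3 (0.154%) overlapped H3K27me3 in the matching list, beside 0.375% of the H4K8ac peaks of all genes. They were those of Unc5b (2 peaks, exercised SIT) and Sema5b (1 peak, sedentary left). At Unc5b these were intronic peaks of 1.10 and 0.983 kb within the H3K27me3 domain. Over peaks that overlap the gene itself, both marks were found in 6, 1 and 2 members in exercised SIT, left and right mice, beside 7.58%, 2.14% and 1.75% of all genes by the same rule. In sedentary mice they were found in 3, 6 and 4, beside 3.44%, 4.65% and 5.17%.

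The arms were also compared within a condition, since the study asked whether isolation and hemisphere change the peaks. In sedentary mice the H4K8ac listing differed between SIT and left lists for 12 members, between SIT and right for 9, and between left and right for 11. In exercised mice it differed for 13, 13 and 12 members. For H3K27me3 the numbers were 6, 9 and 7 in sedentary and 9, 11 and 2 in exercised mice. As shares, H4K8ac listing differed for 13.8 to 20.0% of members and for 20.5 to 36.1% of all genes, and H3K27me3 listing for 3.08 to 16.9% of members and 8.56 to 19.4% of all genes. Membership of the lists therefore also differed between hemispheres of one condition, where no exercise contrast was made.

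Of 55 other genes of the pathway (adaptors, cytoskeletal effectors and further guidance molecules), 49 were in the lists. H4K8ac was in all 6 lists for 18 of the 49 (36.7%, beside 19.3% of all genes) and in at least 1 for 48 (98.0%, beside 79.9%). They included Chl1, an adhesion molecule, with 215 peaks over the 6 lists. H3K27me3 was in all 6 lists for 6 of them (Pak1, Dock1, Tiam1, Flrt2, Lrrc4c and Met, 12.2%, beside 16.5%) and in at least 1 for 15 (30.6%, beside 43.5%). H4K8ac gains and losses among them were 4 and 2 in the SIT arm (8.16% and 4.08%, beside 19.3% and 7.14% of all genes), 2 and 19 in the left arm (4.08% and 38.8%, beside 2.23% and 32.4%) and 3 and 8 in the right arm (6.12% and 16.3%, beside 4.93% and 19.8%). For H3K27me3 they were 3 and 0 in the SIT arm (6.12% gained, beside 15.9%), 0 and 2 in the left arm (4.08% lost, beside 3.08%) and 0 and 8 in the right arm (16.3% lost, beside 15.9%).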

How the data were processed

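CUT&RUN libraries of 60 samples in 18 groups were described in the labels, of which the 20 IgG samples were not analysed here. Per the study's methods the authors checked reads with FastQC 0.11.9, aligned them to mm10 with Bowtie2 2.4.1, called peaks with SEACR and assigned each peak to a gene with ChIPseeker 1.8.6. The deposited lists give each peak's start, end and width in bp and no counts or signal. How samples were combined into a list is not given in the sources used here. A gene was listed when at least 1 peak carried its symbol, and 754 of 256375 peaks had none. Gene positions were those of GENCODE M21, and sequences those of RefSeq (GRCm38.p6). Scripts used Python 3.11.15 with pandas 2.3.3, and the interval functions were tested on simulated data.

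Members and lists were chosen with earlier results of these data known. Members given with values were those with the start inside a peak in all 6 lists, gained or lost in all 3 arms, carrying both marks in a list, widest in their family, or in all 6 lists of one mark and none of the other, with Efnb2, and others named were chosen after their values were seen. Alternatives were promoter peaks alone, intergenic peaks left out, equal numbers of peaks by width, peaks over the gene itself, and peaks near the start site. Long genes and lists without exercised separate libraries were added after seeing the data. With 1 pooled list per group, no test was made.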

Additional observations from a re-analysis of the deposited data

Results flagged for a closer look

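Exercise contrasts of different arms went in opposite directions for some members, and none of these differences was tested, since each arm has 1 exercised and 1 sedentary list. For H4K8ac, 4 members were gained in one and lost in the other of the SIT and left arms (Efnb3, Plxnb1, Robo4 and Neo1, 6.15% of members, beside 8.56% of all genes), and 2 of the left and right arms (Ephb1 and Robo4, 3.08%, beside 3.08%). Between the SIT and right arms 0 members were opposite for H4K8ac, beside 5.16% of all genes. For H3K27me3, 2 members were opposite between the SIT and left arms (Efnb2 and Sema5a, 3.08%, beside 1.83% of all genes), 5 between the SIT and right arms (Epha5, Epha8, Sema3b, Sema3d and Sema5a, 7.69%, beside 8.13%) and 2 between the left and right arms (Epha5 and Epha8, 3.08%, beside 3.56%). The number of members listed for H3K27me3 differed between exercised and sedentary mice by 13 in the SIT arm, by −2 in the left arm and by −7 in the right arm. The longer H3K27me3 list was the exercised one in the SIT and left arms and the sedentary one in the right arm, and the part of list length in these differences was not tested apart from peak width.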

How the results depend on the processing

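No paired analysis was possible because each group has 1 pooled list and no result comes from a test. With promoter peaks alone, 8 of 32 values stayed within 1.5 times. H3K27me3 gains and losses became 4 and 1 (SIT), beside 8.28% and 0.488% of all genes. They became 1 and 2 (left), beside 3.90% and 2.11%, and 1 and 4 (right), beside 1.02% and 9.40%. H4K8ac gains became 16 (SIT, beside 20.3%) and losses 22 (left, beside 25.5%). Members in all 6 lists became 9 (H4K8ac, beside 6.42%) and 6 (H3K27me3). Members with both marks became 1, 0 and 0 in exercised and 0, 1 and 1 in sedentary SIT, left and right mice. Members listed for H4K8ac became 20 (exercised left), 22 (exercised right), 26 (sedentary SIT) and 31 (sedentary right). For H3K27me3 they became 11 (exercised SIT), 8 (exercised left), 9 (sedentary left) and 12 (sedentary right). With peaks over the gene itself, 21 of 32 stayed: H3K27me3 gains were 3 (SIT), 0 (left) and 1 (right), left losses 2, exercised SIT members 13, and members with both marks 6, 1 and 2 in exercised and 3, 6 and 4 in sedentary mice. Without intergenic peaks, 26 of 32 stayed: H3K27me3 gains were 6 (SIT) and 1 (right), and both marks were in 10 (exercised SIT), 3 (exercised right), 7 (sedentary left) and 5 (sedentary right). With equal numbers of peaks, 25 of 38 stayed: H3K27me3 gains were 2 (SIT), 1 (left) and 2 (right), losses 2 (SIT) and 1 (right), H4K8ac gains 8 (left) and 7 (right), left losses 6, both marks 4 (exercised SIT) and 3 (sedentary right), H3K27me3 members 11 (exercised SIT) and 12 (sedentary right), and the H4K8ac start was inside a peak in all 6 lists for 1. A peak within 1000 bp of the start in all 6 H4K8ac lists was found for 6 members. Among genes of at least 100 kb, 7 members were in all 6 H3K27me3 lists. Both covered lengths over the gene itself stayed within 1.5 times. The cause was not tested. Counts with no share of all genes beside them, here or above, were not set against all genes. Without read counts, a gene missing from a list cannot be told apart from one just under the calling threshold.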
